A study of Mus musculus with 6 samples.

Results

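This is an account of 42 innate immune genes of inguinal white adipose tissue (iWAT) in mice lacking the zinc transporter ZIP13: the Toll-like receptors, their adaptors and kinases, the NOD-like receptors and inflammasome components, and the cytokines at either end of these pathways. The 42 were picked by name and role, as listed innate sensors, adaptors and cytokines, out of 21368 genes named on the array, and each was read through probes annotated to a RefSeq transcript of the gene. All 42 had such a probe, and 40 passed the filter on dim probes and were tested. The exceptions were Il1a, well above background on 0 WT arrays and on 1 Zip13-KO array, and Ticam2, well above background on 2 WT arrays and on 0 Zip13-KO arrays. The question was how transcripts of this system differ between Zip13-KO iWAT and the iWAT of wild-type (WT) littermates.

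Toll-like receptors are membrane proteins that bind microbial products, those of the plasma membrane mostly lipids and proteins of the microbial surface and those of endosomes mostly nucleic acids, and they signal through adaptors with a TIR domain and IRAK kinases to NF-kB. Inflammasomes are cytosolic assemblies in which a sensor recruits the adaptor ASC, the product of Pycard, to activate caspase-1, which matures IL-1β and IL-18. In adipose tissue much of this machinery lies in resident macrophages and other leukocytes, though adipocytes and preadipocytes express part of it, Tlr4 among them.

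The study set 3 iWAT samples from Zip13-KO mice beside 3 from WT littermates, one sample to an array. In the Zip13-KO allele a Neo cassette stood in place of exons 6 to 8 of Slc39a13, the gene for ZIP13, in the R1 embryonic stem cells the line came from, in every cell of the animal and not in fat alone. Both genotypes had been crossed to C57BL/6J for 7 generations or more, ate powdered food, and were 10 weeks old by the legend to the study's own display of these arrays. Which chow they ate, their sex, and whether a sample pooled animals are not given in the sources used here, so the p-values below measure the spread between these 6 samples. No treatment or infection was applied, so the values describe resting tissue.

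Values below are log2 intensities of an Agilent one-color array after quantile normalization, 1 probe to a gene, and a change is the Zip13-KO mean minus the WT mean with its standard error. A gene was called when limma gave a Benjamini-Hochberg adjusted p under 0.05 over the 15302 genes tested and the change was over 0.58, a factor of 1.5. Levels of different genes are not compared, since each probe has its own brightness. Between 62.5 and 63.2% of probes were well above background in WT and between 58.8 and 60.4% in Zip13-KO, with no saturated spot, and arrays correlated at 0.9856 to 0.9933 within WT, 0.9942 to 0.9954 within Zip13-KO and 0.9601 to 0.9838 between them. Slc39a13 itself read 11.29, 10.87 and 10.72 in WT and 6.76, 6.66 and 6.47 in Zip13-KO, a change of −4.33 ± 0.17 (limma adjusted p = 0.00128, n = 3 per genotype), which goes with the labels on all 6 arrays, though whether the probe lies in the deleted exons is not known here. All arrays lay on 1 slide, with the 3 WT arrays and Zip13-KO 1 in one slide column and Zip13-KO 2 and 3 in the other. With the slide column as a term the comparison rests on Zip13-KO 1 alone against the 3 WT arrays, since no WT array lay in the other column. The adjusted calls over all genes then fell to 7 lower and 0 higher, none of them a member. At an unadjusted p under 0.05 and the same limit on the fold, 16 of the 40 members and 9.0% of all genes were lower and 0 members and 11.1% of all genes were higher in that fit, and with 1 knockout array these counts are no replicate check.

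Of the 40 members tested, 16 were called lower in Zip13-KO iWAT and 0 were called higher. Il1rn and Tlr8 are among the 16 but passed the filter on dim probes through the WT arrays alone. With only probes well above background on all arrays, 14 were called lower, without Il1rn and Tlr8. Over all genes tested 8.38% were called lower and 10.3% higher, 18.7% in all. These shares stand beside the counts of calls in each class and marker list below. The calls lay in the Toll-like receptors that bind lipoprotein, RNA and bacterial ribosomal RNA (Tlr1, Tlr2, Tlr6, Tlr7, Tlr8 and Tlr13), in Cd14 and Myd88, in the inhibitory kinase Irak3, in the inflammasome genes Nlrc4, Naip2, Pycard, Casp1 and Casp4, and in Il18 and Il1rn. Past the adjusted p at any fold, 23 members were lower and 1, Irak2, was higher, against 15.2% and 19.3% of all genes, with 7 of the 23 and Irak2 under the limit on the fold. At an unadjusted p under 0.05 at any fold, 24 members were lower and 1 higher, against 21.8% and 25.3% of all genes, and the methods' t-test with Benjamini-Hochberg adjustment called 10 lower and 0 higher. The authors combined that test with a median-ratio test, which was not run here, so these are not counts by the paper's own test. The change was below 0 in 37 of 40 members, against 50.1% of all genes, and its median was −0.47, against −0.0005 over all genes. In 27 members all 3 knockout arrays read below all 3 WT arrays, which was so for 25.9% of all genes, and in 1, Irak2, all 3 read above, which was so for 29.2%. Apart from Il1rn, which is given as a bound of at least 1.92-fold lower because no Zip13-KO array was well above background for it, the fitted changes ran from −2.02 for Tlr13 to 0.30 for Irak2. In whole tissue, fewer cells of a type and less RNA per cell cannot be told apart.

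**Figure D1:**
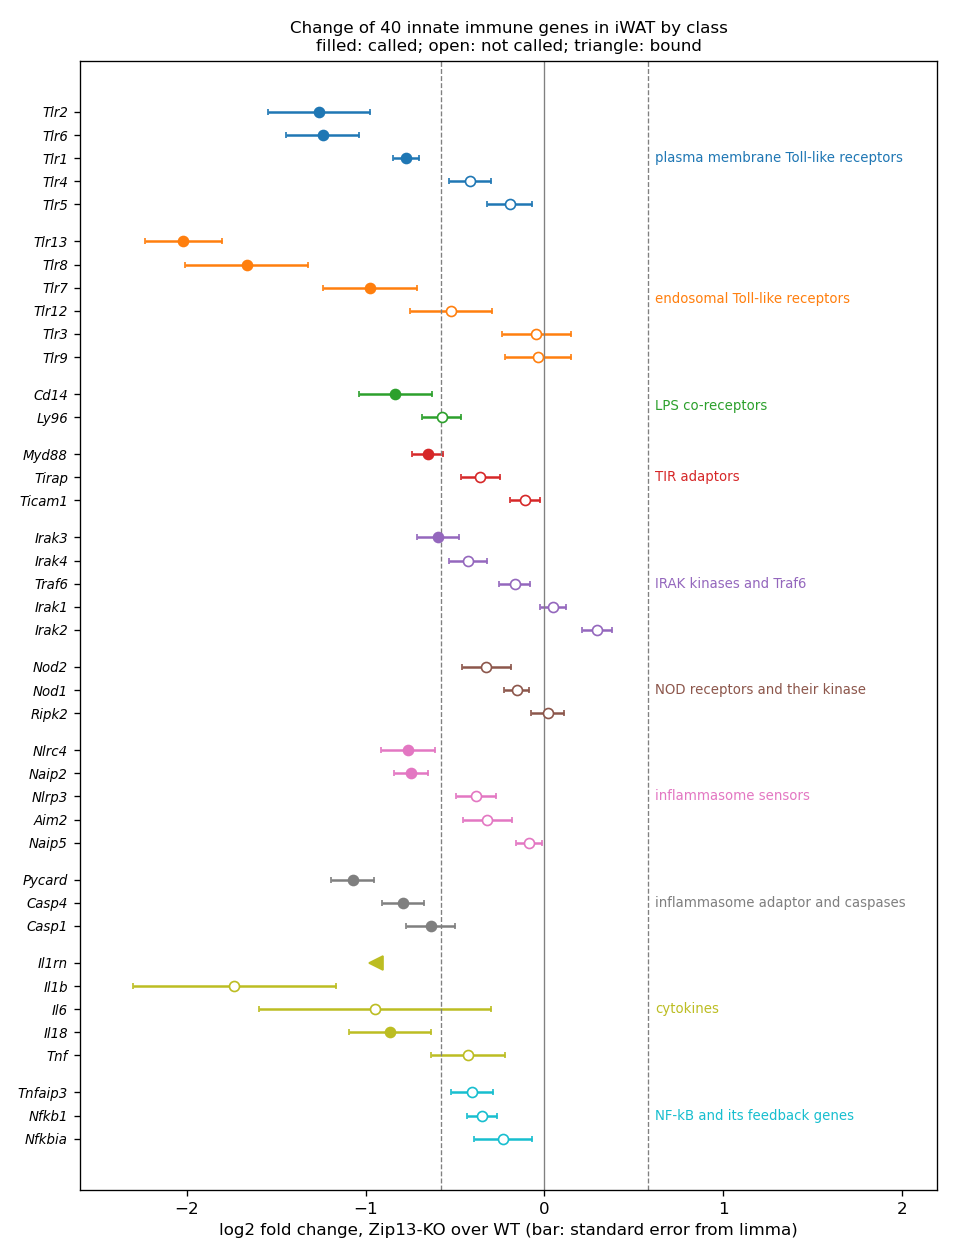
Change of the 40 members tested, by class, as log2 of Zip13-KO over WT (x axis), with the standard error from limma as bars; filled points are called, open points are not, the triangle for Il1rn is a bound, and dashed lines mark the limit of 0.58. The leftmost points are Tlr13, Il1b and Tlr8, the NOD receptors and the NF-kB genes hold no call, and the highest point is Irak2 at 0.30.

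**Figure D2:**
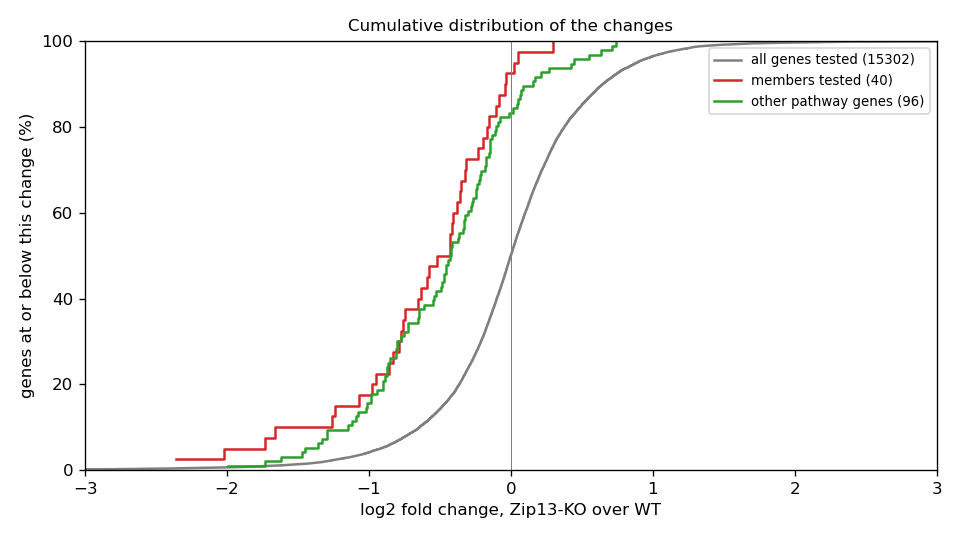
Share of genes (y axis, percent) at or below each log2 change (x axis) for the 15302 genes tested, the 40 members and 96 other genes of the same pathways. The curve of all genes crosses its middle at −0.0005, that of the members at −0.47 and that of the other pathway genes at −0.43.

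Among the receptors of the plasma membrane, the 3 that form the lipoprotein sensors fell. Tlr2 and its partners Tlr1 and Tlr6 were called, 3 of 5 in the class, against 8.38% of all genes tested. Tlr2 read 10.79, 10.14 and 9.63 in WT 1 to 3 and 8.97, 8.77 and 9.05 in Zip13-KO 1 to 3. All 3 knockout arrays lay under the lowest WT array, with WT spread over more than a log2 unit, and the change was −1.26 ± 0.29, 2.4-fold lower (limma adjusted p = 0.0211). Tlr6, which pairs with TLR2 for diacylated lipopeptides, read 8.33, 7.92 and 7.56 in WT and 6.71, 6.55 and 6.84 in Zip13-KO. The groups did not overlap, and the change was −1.24 ± 0.20, 2.36-fold lower (limma adjusted p = 0.00935). Tlr1, the partner for triacylated lipopeptides and the next gene to Tlr6 on chromosome 5, read 10.48, 10.49 and 10.37 in WT and 9.70, 9.67 and 9.66 in Zip13-KO. Both groups were tight, and the change was −0.77 ± 0.07 (limma adjusted p = 0.00441).

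The lipopolysaccharide receptor Tlr4 read between 8.68 and 9.02 in WT and between 8.28 and 8.51 in Zip13-KO, a change of −0.42 ± 0.12 that passed the adjusted p (0.0406 by limma) but not the limit on the fold. Tlr5, the flagellin receptor, read 6.85, 6.52 and 6.48 in WT and 6.40, 6.53 and 6.33 in Zip13-KO. Its groups overlapped, and the change of −0.19 ± 0.12 was not called (limma adjusted p = 0.258). The call of Tlr2 was lost when WT 2 or any 1 of the 3 Zip13-KO arrays was left out, with changes between −1.32 and −1.18 and an adjusted p over all alternatives from 0.0126 to 0.142.

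Of the endosomal receptors 3 of 6 were called lower, against 8.38% of all genes tested. Those called were Tlr7, Tlr8 and Tlr13, whose products sense single-stranded RNA. Tlr13, whose ligand is bacterial 23S ribosomal RNA, had the lowest fitted change of all receptors in the set. It read 11.43, 10.70 and 10.82 in WT and 8.82, 8.88 and 9.20 in Zip13-KO. The knockout arrays lay far below the WT arrays, and the change was −2.02 ± 0.22, 4.06-fold lower (limma adjusted p = 0.00487). Tlr8 read 6.22, 5.04 and 5.04 in WT and 3.49, 3.99 and 3.82 in Zip13-KO, a change of −1.67 ± 0.34 (limma adjusted p = 0.0161). Only 1 of the 3 knockout arrays was well above background for Tlr8, so its size is poorly fixed, and after normexp background correction it was −0.49. Tlr7, the neighbor of Tlr8 on the X chromosome, read 10.22, 9.36 and 9.68 in WT and 8.56, 8.61 and 9.16 in Zip13-KO. Zip13-KO 3 came close to WT 2 without reaching it, and the change was −0.98 ± 0.26 (limma adjusted p = 0.0339). A second Tlr7 probe above background changed by −1.34, and the other, for another transcript, was above background on no array.

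The other endosomal receptors were not called. Tlr9, which binds unmethylated CpG DNA, read 11.54, 10.93 and 10.89 in WT and 11.08, 11.05 and 11.13 in Zip13-KO. The knockout arrays lay inside the WT range, and the change was −0.03 ± 0.18 (limma adjusted p = 0.896). Tlr3, the receptor for double-stranded RNA, changed by −0.04 ± 0.19 with overlapping groups, and the profilin receptor Tlr12 by −0.52 ± 0.23 (limma adjusted p = 0.125). Tlr12 read lower on WT 1, at 9.07, than on WT 2 and 3, at 9.95 and 9.81, and without WT 1 it was called, at −0.79. The call of Tlr7 was lost without WT 1, WT 3, Zip13-KO 1 or Zip13-KO 2 (changes from −1.01 to −0.75), and that of Tlr8 without Zip13-KO 1 (−1.52). Whether Tlr9 and Tlr13 differed in their response was not tested.

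**Figure D3:**
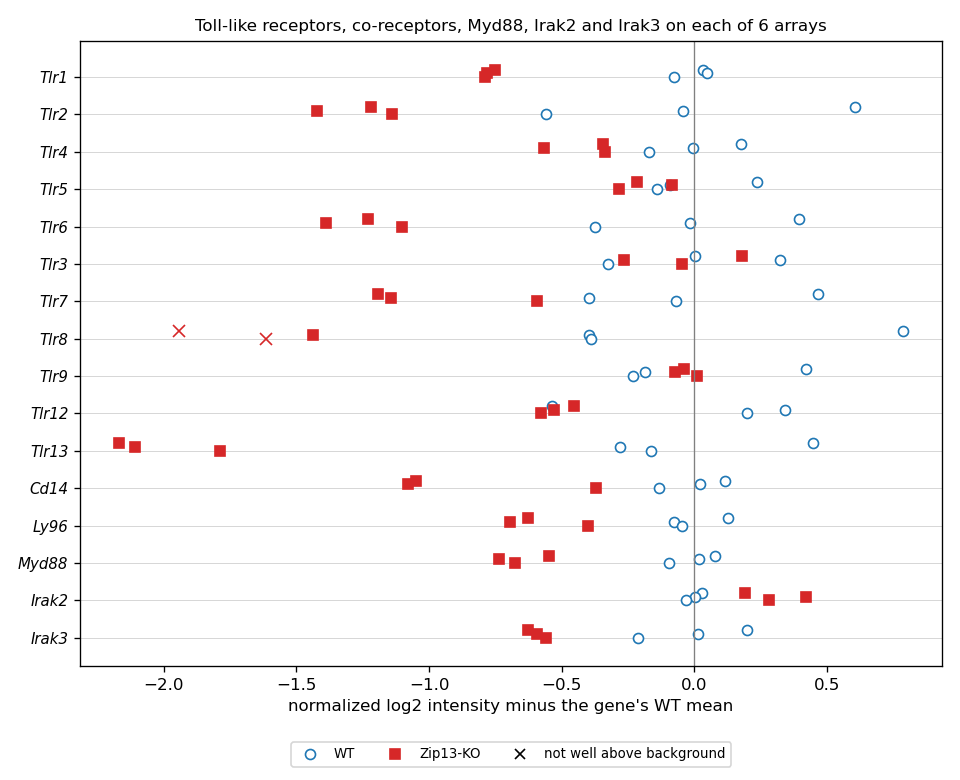
Normalized log2 intensity minus the gene's own WT mean (x axis) on each of the 3 WT arrays (circles) and 3 Zip13-KO arrays (squares) for the 11 Toll-like receptors, Cd14, Ly96, Myd88, Irak2 and Irak3; crosses are arrays not well above background. Tlr1, Tlr2, Tlr4, Tlr6, Tlr7, Tlr8, Tlr13, Cd14, Ly96, Myd88 and Irak3 show squares or crosses wholly to the left of the circles. Of these, Tlr4 and Ly96 were not called, and 25.9% of all genes tested lay so. Tlr3, Tlr5, Tlr9 and Tlr12 overlap, and Irak2 has its squares to the right, as did 29.2% of all genes.

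The promoters of Tlr13 and Tlr9 are printed as those of the receptors with the lowest fitted change and with the change nearest to 0 in this set. Each runs from 250 bases before to 50 bases after the start of the transcript as RefSeq places it on GRCm38.p6, and windows of that kind were at hand for 35 of the 42 members. Tlr13 is at chrX:106143025-106143324 on the plus strand and Tlr9 at chr9:106222348-106222647 on the plus strand, both written 5′ to 3′. Capitals mark matches, on either strand, to letters commonly bound by C/EBP factors (TTGCNNAA, in Tlr13), by PU.1 and other ETS factors (GAGGAAGT, in Tlr9) or by AP-1 (TGANTCA, in Tlr9), none of which overlap here.
Tlr13: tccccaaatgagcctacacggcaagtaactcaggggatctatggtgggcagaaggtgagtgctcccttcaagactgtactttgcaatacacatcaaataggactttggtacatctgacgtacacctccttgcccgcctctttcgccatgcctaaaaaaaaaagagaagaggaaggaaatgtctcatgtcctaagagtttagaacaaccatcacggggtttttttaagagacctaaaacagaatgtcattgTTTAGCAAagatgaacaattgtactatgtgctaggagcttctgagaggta
Tlr9: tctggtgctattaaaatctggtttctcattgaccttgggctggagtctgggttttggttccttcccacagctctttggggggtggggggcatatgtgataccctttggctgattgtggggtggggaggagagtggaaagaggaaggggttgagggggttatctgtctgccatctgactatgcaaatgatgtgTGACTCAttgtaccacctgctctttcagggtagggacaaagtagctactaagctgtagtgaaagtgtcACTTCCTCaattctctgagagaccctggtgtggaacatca

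The same search over all windows found the C/EBP letters for 12.2% of genes, the ETS letters for 3.69%, the AP-1 letters for 8.97%, those of NF-kB (GGG and TTTCC with 2 bases of any kind between them) for 1.89%, and a pair of interferon response repeats (GAAA and GAAA with 2 bases of any kind between them) for 3.99%. Of the 14 members called lower that had a window, 6 held the C/EBP letters (Irak3, Nlrc4, Pycard, Tlr13, Tlr6 and Tlr8), 2 the ETS letters, 2 the NF-kB letters, 2 the interferon repeats (Myd88 and Tlr6) and 1 the AP-1 letters. Of the 20 members tested and not called that had one, 3 held the C/EBP letters, 2 the ETS letters, 4 the NF-kB letters (Il6, Nfkbia, Tlr3 and Tnfaip3), 0 the interferon repeats and 3 the AP-1 letters. A match describes the letters of the window and not binding.

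Both co-receptors of the lipopolysaccharide complex were lower on every Zip13-KO array than on any WT array, which was so for 25.9% of all genes. Cd14, which hands lipopolysaccharide to TLR4, read 11.12, 11.03 and 10.87 in WT and 9.96, 9.93 and 10.64 in Zip13-KO. Zip13-KO 3 lay nearer to WT than the other knockout arrays, and the change was −0.83 ± 0.21 (limma adjusted p = 0.0263). Ly96, which encodes the MD-2 subunit that binds lipid A, read 10.04, 9.84 and 9.87 in WT and 9.29, 9.22 and 9.51 in Zip13-KO, a change of −0.57 ± 0.11 just under the limit on the fold (limma adjusted p = 0.013). The call of Cd14 was lost without WT 1, WT 2, Zip13-KO 1 or Zip13-KO 2 (changes from −0.83 to −0.71), and Ly96 gained a call without WT 2, WT 3 or Zip13-KO 3 (−0.66 to −0.60).

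Of the TIR adaptors, Myd88 was called lower, and it is the adaptor of every Toll-like receptor but TLR3 and of the IL-1 receptor family. Myd88 read 11.08, 11.01 and 10.90 in WT and 10.45, 10.26 and 10.32 in Zip13-KO. The 2 groups were well apart, and the change was −0.65 ± 0.09, 1.57-fold lower (limma adjusted p = 0.00669). Tirap, which bridges MyD88 to TLR2 and TLR4, changed by −0.36 ± 0.11 (limma adjusted p = 0.048), under the limit on the fold. Ticam1, which encodes the TRIF adaptor of TLR3 and TLR4, read 8.77, 8.71 and 8.83 in WT and 8.74, 8.55 and 8.69 in Zip13-KO. Its groups overlapped, and the change was −0.11 ± 0.08 (limma adjusted p = 0.344).

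Of the IRAK kinases and Traf6, 1 of 5 was called lower, Irak3, and 0 higher, against 8.38% and 10.3% of all genes tested. Irak3 encodes IRAK-M, a negative regulator of this signaling that is found mainly in monocytes and macrophages, and it read 10.19, 10.01 and 9.78 in WT and 9.36, 9.40 and 9.43 in Zip13-KO. The change was −0.59 ± 0.12, called and barely past the limit on the fold (limma adjusted p = 0.014). Irak2, a kinase that sustains signaling to NF-kB, read 11.563, 11.536 and 11.503 in WT and 11.72, 11.95 and 11.81 in Zip13-KO. It was the only member above WT on every knockout array, by 0.30 ± 0.08 (limma adjusted p = 0.0399), under the limit on the fold. Its second, dimmer probe changed by 0.05, and with the mean of both probes the change was 0.18 (limma adjusted p = 0.445, against 0.0235 to 0.445 over the alternatives with an adjusted p). Irak4, the first kinase recruited to MyD88, changed by −0.43 ± 0.11 (limma adjusted p = 0.0266), and Irak1 by 0.05 ± 0.07 and the ligase Traf6 by −0.17 ± 0.09 were not past the threshold. The call of Irak3 was lost without WT 1, Zip13-KO 1 or Zip13-KO 2 (changes from −0.59 to −0.49).

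The NOD receptors of bacterial peptidoglycan and their kinase held 0 calls in 3 by limma, 0 by the methods' t-test after adjustment, and at an unadjusted p under 0.05 0 by limma and 1, lower, by the methods' t-test. Nod2 read 6.78, 7.25 and 6.85 in WT and 6.64, 6.69 and 6.57 in Zip13-KO, a change of −0.32 ± 0.14 (limma adjusted p = 0.112). WT 1 and Zip13-KO 2 were close, and WT 2 stood highest. Ripk2, the kinase both receptors use, read 5.15, 5.39 and 5.36 in WT and 5.33, 5.25 and 5.38 in Zip13-KO, a change of 0.02 ± 0.09, and Nod1 changed by −0.15 ± 0.07 (limma adjusted p = 0.135).

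Among the inflammasome sensors, the flagellin and type III secretion sensors Nlrc4 and Naip2 fell, while Nlrp3, Naip5 and Aim2 were not called. Nlrc4, the partner that NAIP proteins recruit, read 7.83, 7.59 and 7.68 in WT and 7.07, 7.11 and 6.64 in Zip13-KO. The groups were apart, and the change was −0.76 ± 0.15 (limma adjusted p = 0.014). Naip2, the receptor for the inner rod protein of bacterial secretion systems, read 9.97, 9.95 and 9.79 in WT and 9.13, 9.06 and 9.28 in Zip13-KO, a change of −0.75 ± 0.09 (limma adjusted p = 0.00608). Its neighbor and paralog Naip5, a flagellin receptor, read 15.29, 15.37 and 15.23 in WT and 15.25, 15.20 and 15.19 in Zip13-KO. The change of Naip5 was −0.09 ± 0.07 (limma adjusted p = 0.386), and how far the probes of these near-identical genes tell them apart is uncertain, as probe sequences were not used here. Nlrp3, the sensor that potassium efflux and crystals activate, changed by −0.38 ± 0.11 (limma adjusted p = 0.0419), under the limit on the fold, and the DNA sensor Aim2 by −0.32 ± 0.14 (limma adjusted p = 0.121).

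The adaptor and the caspases were called in 3 of 3, with no overlap between genotypes in any of them. Over all genes tested 8.38% were called lower, and 25.9% had every Zip13-KO array below every WT array. Pycard read 12.27, 12.03 and 11.92 in WT and 10.88, 10.99 and 11.14 in Zip13-KO. The change was −1.07 ± 0.12, 2.1-fold lower (limma adjusted p = 0.00522). Casp4, the cytosolic lipopolysaccharide sensor also called caspase-11, read 11.80, 11.99 and 11.77 in WT and 10.88, 11.08 and 11.22 in Zip13-KO, a change of −0.79 ± 0.12 (limma adjusted p = 0.00775), and its second probe changed by −0.78. Casp1, next to Casp4 on chromosome 9, read 11.94, 12.19 and 11.68 in WT and 11.32, 11.35 and 11.23 in Zip13-KO, a change of −0.64 ± 0.14 (limma adjusted p = 0.0184). The call of Casp1 was lost without WT 2 (−0.51) or without any 1 of the 3 Zip13-KO arrays (−0.66 to −0.60), and with scaling to the 75th percentile in place of quantile normalization (−0.56).

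The promoters of Pycard and Casp4 are printed because, in this class, these 2 genes stayed called without any 1 of the 6 arrays. Their windows also hold letters of the factors searched above. Called members outside this class, Nlrc4 and Tlr6 among them, met both conditions too and are not printed. Pycard is at chr7:127993818-127994117 on the minus strand and the first of the Casp4 windows at chr9:5308599-5308898 on the plus strand, on GRCm38.p6 from RefSeq, both 5′ to 3′. Capitals mark the C/EBP letters and then the ETS letters in Pycard and both matches to the NF-kB letters in Casp4, each on one strand or the other and none overlapping.
Pycard: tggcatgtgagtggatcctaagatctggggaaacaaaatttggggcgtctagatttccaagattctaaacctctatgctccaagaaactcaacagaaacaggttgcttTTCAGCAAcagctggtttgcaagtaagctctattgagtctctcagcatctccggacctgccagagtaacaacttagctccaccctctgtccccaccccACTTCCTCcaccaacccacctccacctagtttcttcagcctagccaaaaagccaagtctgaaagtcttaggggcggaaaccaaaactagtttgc
Casp4: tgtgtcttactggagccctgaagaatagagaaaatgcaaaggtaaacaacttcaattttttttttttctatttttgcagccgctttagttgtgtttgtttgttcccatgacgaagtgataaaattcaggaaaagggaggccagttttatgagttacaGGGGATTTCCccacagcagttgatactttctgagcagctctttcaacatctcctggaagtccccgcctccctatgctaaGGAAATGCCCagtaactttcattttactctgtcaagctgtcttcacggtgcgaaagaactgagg

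The cytokines gave the lowest class median, −0.95 over 5 tested genes or −0.94 with Il1rn at its bound. The first is the value of Il6, which was not called, and the second is that bound itself. Both rest on signal near background, and 2 of the 5 genes were called lower, against 8.38% of all genes tested. The largest WT standard deviations among the members were those of this class, 1.17 for Il6 and 0.88 for Il1b. Il18, the caspase-1 substrate that is made constitutively, read 10.97, 10.26 and 10.26 in WT and 9.55, 9.44 and 9.90 in Zip13-KO. The change was −0.86 ± 0.23 (limma adjusted p = 0.0332) and the groups did not overlap. Il1rn, the antagonist of the IL-1 receptor, read 4.43, 5.41 and 4.12 in WT and 1.99, 2.52 and 2.36 in Zip13-KO, where 0 of 3 arrays were well above background. Against the lowest signal that counts as above background Il1rn was at least 1.92-fold lower (limma adjusted p = 0.00761 for the fit), and it lost its call after normexp background correction (−0.36) and in the deposited table (−0.52).

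Il1b, the main inflammasome cytokine, read 7.80, 8.85 and 7.09 in WT and 7.10, 5.96 and 5.49 in Zip13-KO. Its fitted change of −1.73 ± 0.57 was among the lowest, but WT 3 and Zip13-KO 1 met, and it was not called (limma adjusted p = 0.0588). It was called without WT 3 (−2.14), in the deposited table (−1.29) and with an intensity trend in the fit (−1.73). Il6 read 5.13, 6.24 and 3.89 in WT and 4.91, 4.07 and 3.44 in Zip13-KO, with 1 of 3 knockout arrays above background, and its change of −0.95 ± 0.65 was not called (limma adjusted p = 0.288). Tnf read 6.99, 7.46 and 6.97 in WT and 7.08, 6.51 and 6.55 in Zip13-KO, overlapping, at −0.43 ± 0.21 (limma adjusted p = 0.153). The call of Il18 was lost without Zip13-KO 1 (−0.82) or Zip13-KO 2 (−0.76).

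**Figure D4:**
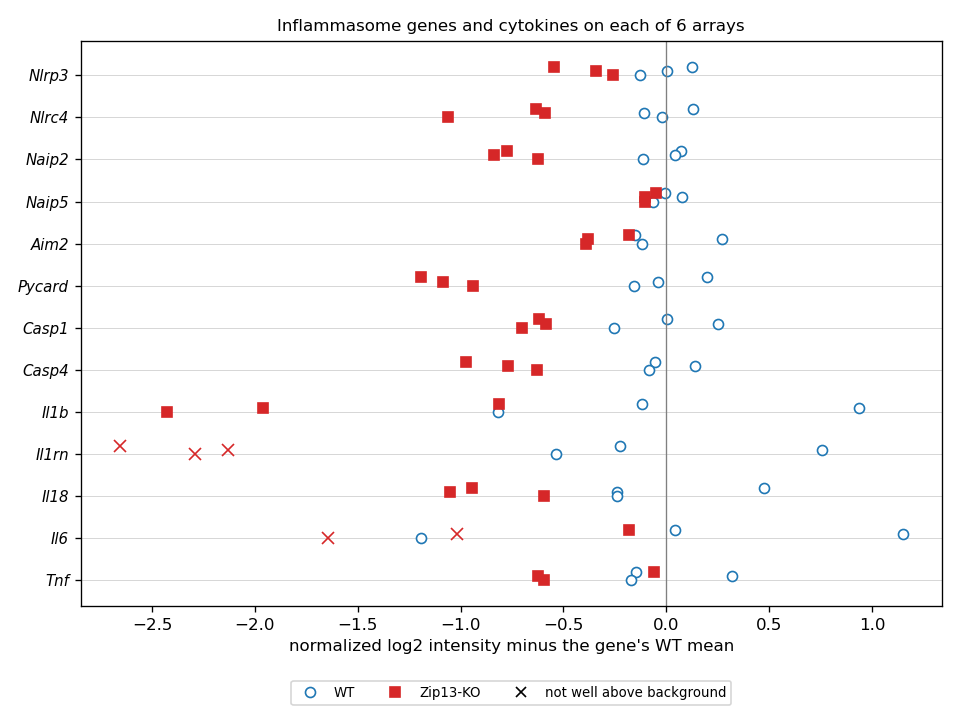
Normalized log2 intensity minus the gene's own WT mean (x axis) for inflammasome sensors, adaptor, caspases and cytokines on each WT array (circles) and Zip13-KO array (squares); crosses are arrays not well above background. Nlrp3, Nlrc4, Naip2, Aim2, Pycard, Casp1, Casp4, Il1rn and Il18 lie lower without overlap, Nlrp3 and Aim2 uncalled. Over all genes tested 25.9% had every Zip13-KO array below every WT array. Naip5 stays within 0.11 of its WT mean on every array, and Il1b and Il6 spread over more than 2 log2 units.

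NF-kB and its feedback genes held 0 calls in 3, by limma and by the methods' t-test after adjustment, with 2 lower at an unadjusted p under 0.05. Tnfaip3, which encodes the deubiquitinase A20 that ends the signal, read 11.07, 11.26 and 11.44 in WT and 10.74, 10.92 and 10.91 in Zip13-KO, a change of −0.40 ± 0.12 (limma adjusted p = 0.0411). Nfkb1, the p105 and p50 subunit, changed by −0.35 ± 0.08 (limma adjusted p = 0.0238), both of them under the limit on the fold. Nfkbia, the inhibitor IκBα and a direct NF-kB target, read 14.32, 14.17 and 14.47 in WT and 13.77, 14.19 and 14.31 in Zip13-KO. Its groups overlapped, and the change was −0.23 ± 0.16 (limma adjusted p = 0.306).

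Of 96 tested genes in a wider list of the same pathways, 33 were called lower and 2 higher, with a median of −0.43. For these counts and those of its groups below, the shares over all genes tested were 8.38% lower and 10.3% higher. The list was drawn up with earlier results of these arrays known. Receptor accessory and trafficking genes held 6 lower and 1 higher of 12. In this group Lgmn, an endosomal protease that cleaves TLR9, changed by −1.74 ± 0.26, the lipopolysaccharide carrier Lbp by −1.33 ± 0.40 and the protease Ctss by −1.30 ± 0.13 (limma adjusted p = 0.00816, 0.0462 and 0.00459). Cd36, a fatty acid transporter of adipocytes that also assists TLR2, rose by 0.71 ± 0.18 (limma adjusted p = 0.0266).

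Further adaptors, kinases and ligases held 7 lower and 1 higher of 25, led by the signaling adaptor Pik3ap1 (−1.09 ± 0.19), the necroptosis kinase Ripk3 (−1.01 ± 0.15) and the tyrosine kinase Syk (−0.99 ± 0.12), while the IRAK-binding ligase Peli2 rose by 0.74 ± 0.08 (limma adjusted p = 0.00512). NF-kB and IRF factors and inhibitors held 4 lower and 0 higher of 20, with 0 higher at an unadjusted p under 0.05 too. Irf7, the factor for type I interferon downstream of endosomal receptors, changed by −1.62 ± 0.25, the A20 partner Tnip3 by −1.14 ± 0.17 and Irf5 by −0.87 ± 0.14. Further inflammasome and cytosolic sensors held 10 lower and 0 higher of 23, with Zbp1, a sensor of Z-form nucleic acid, at −1.47 ± 0.31, the pyrin gene Mefv at −1.45 ± 0.10 and Nlrp1b at −1.36 ± 0.28. Nlrx1 at 0.45 ± 0.07 and Mavs at 0.55 ± 0.11 were higher past the adjusted p but under the limit on the fold (limma adjusted p = 0.00822 and 0.014), and both are named after their values were seen. Receptors of the IL-1 and IL-18 family and related cytokines held 6 lower and 0 higher of 16. The anti-inflammatory cytokine Il10 read 6.20, 6.06 and 5.49 in WT and 3.48, 3.82 and 4.47 in Zip13-KO. Its fitted change was −1.99 ± 0.30 (limma adjusted p = 0.00808). Only 2 of the 3 knockout arrays were well above background for Il10, so its size is poorly fixed. Tnfrsf1b changed by −1.08 ± 0.12 and the decoy receptor Il1r2 by −0.99 ± 0.22.

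Markers of several cell types were lower in Zip13-KO iWAT along with the called members, most of them markers of leukocytes. The share called lower over all genes tested was 8.38%. Of 4 pan-leukocyte markers 4 were called lower, with Coro1a, an actin regulator of leukocytes, at −0.64 ± 0.07, and their summed intensity was 40350 to 42240 on the WT arrays and 24780 to 26100 on the Zip13-KO arrays. Of 11 macrophage markers 9 were called lower, with a median of −1.37 and the growth factor receptor Csf1r at −1.03 ± 0.17 (limma adjusted p = 0.0102), and the sum was 96750 to 163600 in WT and 40760 to 58270 in Zip13-KO. Of 4 monocyte markers 3 were called lower, with a median of −1.59 (22580 to 36240 against 12230 to 13370). Of 9 neutrophil markers 4 were called lower, with a median of −1.18, and their sum of 79030 to 81200 against 67730 to 71060 is mostly that of 1 bright probe, Csf3r, which changed by 0.005. Mast cell markers had a median of −1.18, with 1 of 6 called lower, 5 below every WT array on all Zip13-KO arrays and 5 lower at an unadjusted p under 0.05 and the limit on the fold (7115 to 22830 against 4714 to 6754). Over all genes the last 2 shares were 25.9% and 10%. The other mast cell marker, Kit, went the other way and was above every WT array on all Zip13-KO arrays. It changed by 0.41 ± 0.10 (limma adjusted p = 0.0279), under the limit on the fold. Stromal markers, which include those of preadipocytes, were below 0 in 6 of 6 with a median of −0.57, and 2 were called lower, Dpp4 at −1.05 ± 0.25 and Pdgfra at −0.65 ± 0.19 (122600 to 225800 against 113300 to 132700). The 40 members tested summed to 101900 to 108100 in WT and 82450 to 89780 in Zip13-KO. The called members summed to 22610 to 28800 in WT and 13110 to 14920 in Zip13-KO. They were called lower on these same arrays, so their lower sum was set by that choice. No tested marker of these 6 lists was below background on all arrays of a genotype. The part of these cell types in the changes above was not tested.

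Lymphocyte and dendritic cell markers had smaller median changes, −0.39 for T and NK cells, −0.39 for B cells and −0.37 for dendritic cells. T and NK cell markers held 0 calls in 7 by limma and 0 by the methods' t-test after adjustment, with 4 lower at an unadjusted p under 0.05, and their sum was 18490 to 23630 in WT and 14430 to 17140 in Zip13-KO. Of 6 B cell markers 1 was called lower (39350 to 46390 against 30410 to 34040), and 1 of 6 dendritic cell markers (34410 to 37530 against 33030 to 34070). The dendritic cell sum is mostly that of 1 bright probe, Siglech, which changed by −0.03. Itgax, the dendritic cell marker called, changed by −0.86 ± 0.21. Endothelial markers were above 0 in 5 of 5, with Cdh5 called higher at 0.77 ± 0.10 (5969 to 6448 against 7713 to 8010). Adipocyte markers had 3 of 8 called higher (367200 to 500800 against 583000 to 612000), and all 6 brown and beige markers were called higher, with Cox8b, a muscle and brown fat subunit of cytochrome oxidase, at 1.67 ± 0.17. Their part in the result was not tested.

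Within a genotype the arrays also differed. WT 1 was the highest WT array for 12 of the 16 called members and 21 of the 40 tested, WT 2 for 4 and 13, and WT 3 for 0 and 6. Zip13-KO 3 was the highest knockout array for 10 of the 16 and 19 of the 40, Zip13-KO 2 for 4 and 10, and Zip13-KO 1 for 2 and 11. The summed macrophage, stromal and mast cell markers each ran from WT 1 down to WT 3 and were highest in the knockout on Zip13-KO 3 and lowest on Zip13-KO 2. The pan-leukocyte sum, in which Coro1a is the brightest probe, was lowest of WT on WT 1, at 40350. The median of the same list was highest of WT on WT 1, at 0.011, against −0.063 on WT 2 and 0.006 on WT 3. These counts and orders share libraries and are a description with no test.

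**Figure D5:**
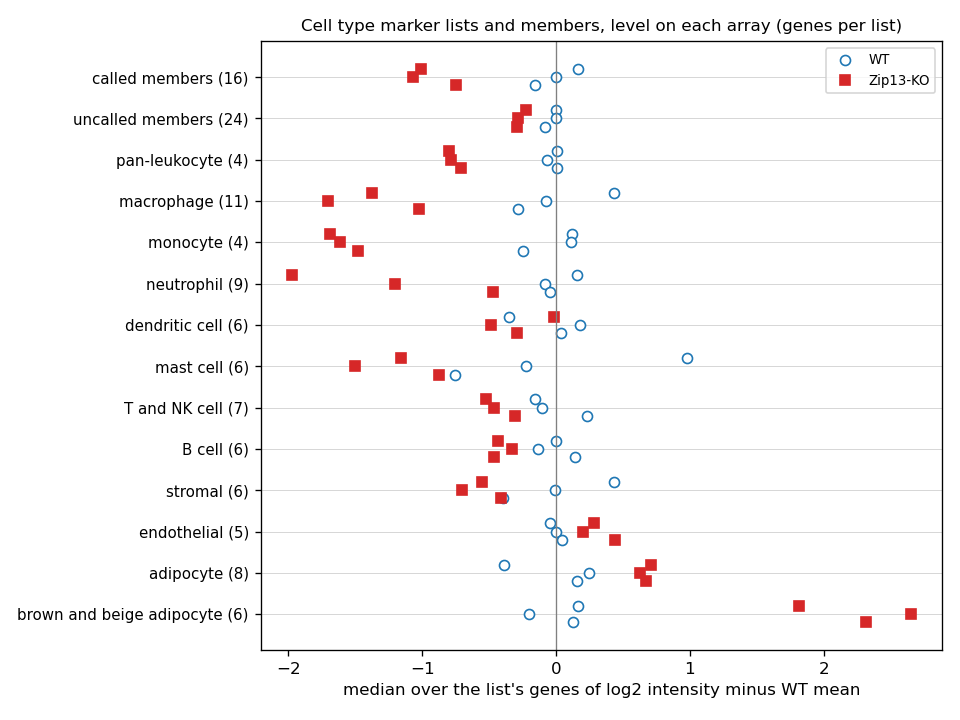
Median over each list's genes of the log2 intensity minus the gene's WT mean (x axis), on each WT array (circles) and Zip13-KO array (squares), for the called members, the members tested and not called, and 12 marker lists, with the number of genes in parentheses. The called members lie at −1.06 to −0.75 on the knockout arrays, which follows from their being called lower on these same arrays. Macrophage markers lie at −1.70 to −1.02, B cell markers at −0.46 to −0.33, and brown and beige adipocyte markers at 1.82 to 2.65.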

How the data were processed

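Agilent mouse arrays of 1 color (Cy3) each held the labeled iWAT RNA of 1 sample, 3 of them WT and 3 Zip13-KO. The authors deposited the scanner output, made with Feature Extraction 11.5.1.1, which holds linear intensity values per spot after background subtraction, and a table of normalized log2 values. Processed intensities were log2 transformed per spot and averaged per probe, leaving out spots flagged as outliers. They were then quantile normalized as in the authors' methods, in R 4.3.3 with limma 3.58.1. Of 55681 probes, those well above background on all 3 arrays of a genotype were kept (33041), and the brightest kept probe stood for a gene, giving 15302 genes. Genotypes were compared by lmFit and eBayes with Benjamini-Hochberg adjustment over all genes, called at 0.05 and a change over 0.58. Arrays have no read depth, so their number limits the precision, and 3 against 3 cannot give an exact two-sided permutation p under 0.1. Where no array of a genotype was well above background, a bound was computed from the lowest signal above background. The fit was tested on simulated data. The 42 genes and the gene lists were chosen with earlier results of these data known. All 42 were named, with array values for those called and for the largest and smallest change of each class, along with the top pathway genes of each group among those called and the brightest marker of some lists. Il1b, Il6, Tlr4, Tlr12 and Il10 were given array values after these were seen. Promoters came from RefSeq on GRCm38.p6. Alternatives covered background correction, scaling, filter, probe choice, threshold, test, prior, replicate block, slide column and leaving out each array. The alternative test named after the methods left out their median-ratio test and their own filter on expressed probes. No slide or scan block was run, since there was 1 slide and 1 scan.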

Additional observations from a re-analysis of the deposited data

How the results depend on the processing

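The precision is set by 3 arrays per genotype and, for Il1rn, Tlr8, Il6 and Il10, by signal near background. The count of 16 members called lower was 16 with the methods' t-test before adjustment and became 10 with the methods' t-test after Benjamini-Hochberg adjustment and 0 with the slide column as a term, and ranged from 9 to 18 when each array was left out, with 0 higher each time. Without a limit on the fold 1 member was called higher. With only probes well above background on all arrays, the count of members called lower was 14, without Il1rn and Tlr8. Over all genes (1576 higher and 1282 lower), the counts became 2952 and 2330 without a limit on the fold, 1552 and 1246 with the methods' t-test before adjustment and 1008 and 721 after it, and 0 and 7 with the slide column, and ranged from 955 to 1670 and from 768 to 1475 when each array was left out. For the other pathway genes (2 higher and 33 lower), the slide column gave 0 and 0, the higher count was 1 without the filter on dim probes, 1 with the methods' t-test after adjustment and 4 without a limit on the fold, and leaving out arrays gave 1 to 4 higher and 26 to 38 lower. The members' median of −0.47 became −0.35 after normexp background correction and ranged from −0.55 to −0.41 when each array was left out. The fit with the slide column compares Zip13-KO 1 alone with WT. In it Tlr3 turned to 0.18.

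The labels do not say whether arrays with the same replicate number were paired. Deviations of same-numbered arrays correlated at −0.02, 0.04 and −0.08, and those of the other pairs at −0.17 to 0.18. With 3 arrays per genotype these values cannot exclude a pairing. The replicate block gave 1278 genes higher and 1051 lower, 12 members lower (Cd14, Il18, Tlr7 and Tlr8 lost) and 1 pathway gene higher and 29 lower. Tlr1, Tlr6, Tlr13, Myd88, Nlrc4, Naip2, Pycard and Casp4, 8 of the 16, stayed called under every alternative tried except the slide column. The methods' t-test after adjustment also lost Tlr2, Tlr7, Tlr8, Cd14, Casp1 and Il18, and analysis without the filter on dim probes lost Tlr7, Cd14 and Il18. The causes were not tested.

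Changes near 0 turned sign in some alternatives. Tlr3 became 0.024 with normexp and 0.019 in the deposited table, and ranged from −0.21 to 0.12 when each array was left out, above 0 without WT 2 and without Zip13-KO 2. Tlr9 became 0.013 with the 75th percentile and ranged from −0.15 to 0.17, above 0 without WT 1. Naip5 became 0.040 with the 75th percentile. Ripk2 became −0.010 in the deposited table and ranged from −0.055 to 0.062, below 0 without WT 1 and without Zip13-KO 3. None of these was called.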
